A study of Mus musculus with 12 samples.

Results

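In day 6 cardiac progenitor cells with induced GLI1, 1537 intervals of acetylated histone H3 lysine 27 (H3K27ac) were new beside GLI1 sites. They were chosen from the list of the induced cells, called dox below, by 4 conditions. The highest −log10 q of the interval, the peak caller's significance after adjustment, had to be at least 10, the interval had to share no base pair with an interval of the control list, no GLI1 site could lie inside it, and a GLI1 site had to lie within 50 kb of its edge. Of 76437 dox intervals, 27878 passed the threshold on q, and 5528 of these (19.8%) shared no base pair with a control interval. A GLI1 site lay inside 845 of the 5528, which left 4683, of which 1537 (32.8%) were near a site and 3146 were farther away. The q value, the fold enrichment, the absence from the control list and the distance of up to 50 kb therefore describe how the intervals were chosen, and nothing is inferred from them.

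The cells were differentiated from mouse embryonic stem cells of the GLI1-FTA line, made in the strain A2Lox.cre. All groups carried this line and were harvested on day 6. The dox groups received 500 ng/ml doxycycline for 24 h from day 5, and the control groups were left untreated. There were 6 groups of 2 samples, with and without doxycycline for each of GLI1 pulldown, H3K27ac immunoprecipitation and input. GLI1 was captured on streptavidin beads through its tag, and H3K27ac with an antibody. Whether the replicates were separate differentiations is not given, the protein was over-expressed from a single engineered line, and none of these samples had doxycycline without the transgene, so the effects of the drug and of GLI1 cannot be told apart. The authors' lists pool both replicates of a group, so no spread between samples and no test stand behind any value below, and each interval in brackets covers counting error only. In a population of cells, more acetylation per cell and more cells with acetylation at a place cannot be told apart.

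GLI1 is a zinc finger transcription factor at the end of the hedgehog pathway. When a hedgehog ligand binds the receptor Patched, Smoothened is released, and GLI proteins activate genes through sites close to the letters GACCACCCA. H3K27ac marks active promoters and active enhancers, and at a bound enhancer it sits on the nucleosomes beside the factor rather than on the DNA the factor occupies. In the embryo, hedgehog signalling acts on progenitors of the second heart field, which add to both poles of the heart tube.

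The label of the cells was checked at the annotated ends of marker genes. Among 10 cardiac markers, 6 had an H3K27ac interval at a gene end in control, with a fold enrichment between 3.35 at Myl7 and 26.7 at Gata6, and 5 had one in dox. Dox values were below control at Gata6 (20.5 against 26.7), Hand2 (10.8 against 24.5), Tbx20 (12.6 against 17.3) and Tnnt2 (3.74 against 10.4). Isl1 was similar in both (21.0 and 20.2), and Myl7 had no interval in dox. No interval lay at the ends of Nkx2-5, Gata4, Tbx5 or Mef2c in either list. The neural markers (3) had none, Nanog was the 1 pluripotency marker of 3 with an interval, and Foxa2, an endoderm marker, had one in dox alone, at a fold enrichment of 34.0. Of 4 blood and endothelial markers, Pecam1 had an interval in both lists, and Tal1 (4.75) and Cdh5 (3.13) in dox alone. The part of such other cells in the members was not tested.

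Few of the members lay at a gene start, and there the sequence could be read. Among 32851 promoters of the mouse RefSeq annotation (GRCm38.p6, the 250 bases before each start), 42 shared a base pair with a member, and each belonged to another gene and another member. The letters GACCACCCA, searched on both strands, occurred in 1 of the 42 promoters (2.38%, Wilson 95% interval 0.42 to 12.3). They occurred in 0.225% of all promoters and 0.221% of those in a dox interval. A single promoter is too few to compare these shares. The shorter core CCACCC, which is part of those letters, occurred in 15 of 42 (35.7%, Wilson 95% interval 23.0 to 50.8), against 28.1% of all promoters and 32.2% of the promoters inside any dox interval. The 3 shown are those of Prdm1 and Aldh3b3, whose members are described below, and that of the non-coding transcript B230206H07Rik, the promoter with the 9 letters, given in capitals as they read on its own strand.
Prdm1 chr10:44458749-44458998 (- strand): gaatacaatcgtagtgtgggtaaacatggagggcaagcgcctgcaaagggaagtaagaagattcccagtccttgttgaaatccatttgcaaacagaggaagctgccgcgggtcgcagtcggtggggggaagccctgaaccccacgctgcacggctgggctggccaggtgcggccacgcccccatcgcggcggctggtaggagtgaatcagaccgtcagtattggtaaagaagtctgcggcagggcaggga
Aldh3b3 chr19:3958558-3958807 (+ strand): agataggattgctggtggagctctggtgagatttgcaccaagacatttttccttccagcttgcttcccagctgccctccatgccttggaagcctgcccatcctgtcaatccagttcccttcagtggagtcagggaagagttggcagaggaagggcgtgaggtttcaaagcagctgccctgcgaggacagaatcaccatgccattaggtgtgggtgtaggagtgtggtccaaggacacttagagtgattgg
B230206H07Rik chr7:141365111-141365360 (- strand): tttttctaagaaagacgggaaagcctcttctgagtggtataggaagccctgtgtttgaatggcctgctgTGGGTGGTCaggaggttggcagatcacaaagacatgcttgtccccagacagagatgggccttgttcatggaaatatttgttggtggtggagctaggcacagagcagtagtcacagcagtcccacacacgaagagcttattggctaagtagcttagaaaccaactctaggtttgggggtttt
Neither of the first 2 promoters holds CCACCC on either strand, so the members at those starts have no such letters in this window. The members' own sequences and the sequences of the GLI1 sites are not shown here.

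The members fell into 2 distance classes, a division made after the distances had been seen. The gap between a member and its nearest site was at most 100 bp for 278 members and 100 to 200 bp for 66. Only 22 lay at 200 to 500 bp and 16 at 500 to 1000 bp. Beyond that the number rose again to 79 members at 1 to 2 kb and then declined per kb of gap, from 62.3 at 2 to 5 kb to 13.4 at 40 to 50 kb. The 366 members within 500 bp are called abutting and the other 1171 distal. Over all members the median gap was 7941 bp.

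**Figure D1:**
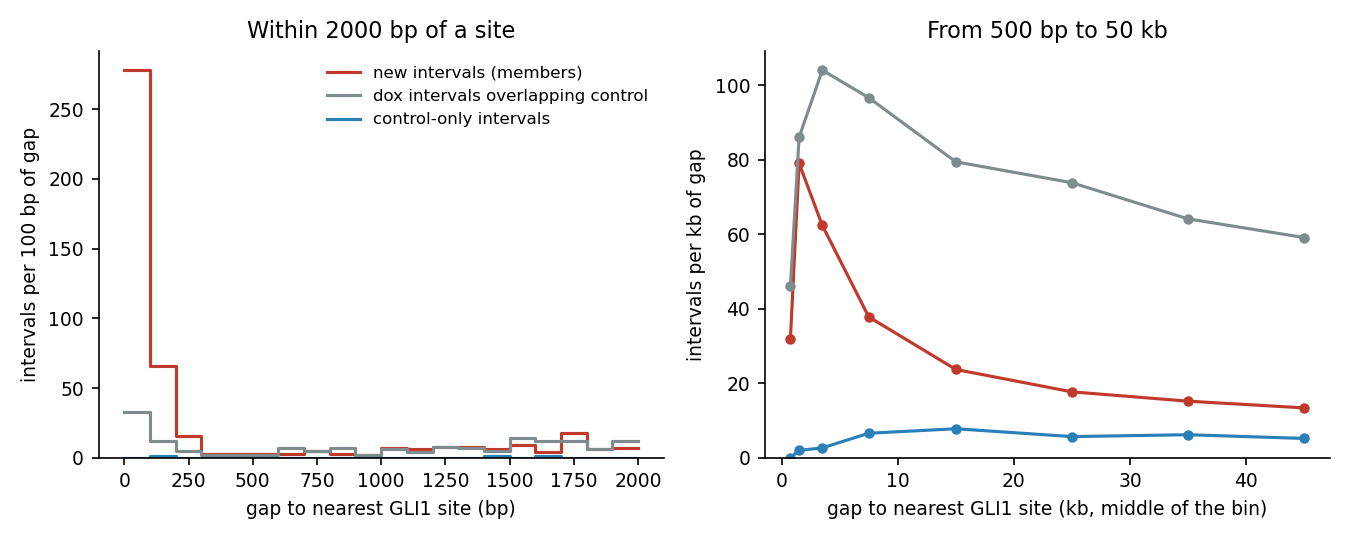
Number of H3K27ac intervals at −log10 q of at least 10 and without a GLI1 site inside, by gap to the nearest site, per 100 bp (left) and per kb plotted at the middle of each bin (right). Members (red) pile up within 200 bp, with 278 in the first 100 bp, and decline from 1 kb outward, while control-only intervals (blue) show no such pile.

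Intervals chosen in the same way from other sets were distributed differently. Of 21581 dox intervals without a site that overlapped a control interval, 17.2% lay within 50 kb of a site, and of 2896 control-only intervals 10.1% did (Wilson 95% interval 9.07 to 11.3). The share among all dox intervals at any q was 23.4%. It was 29.9% among dox-only intervals below the threshold on q. For the abutting distance the gap between the sets was wider, since 366 of the 4683 dox-only intervals (7.82%) lay within 500 bp of a site, 0.250% of those overlapping control and 1 control-only interval. With these left out, 27.1% of the dox-only, 17.0% of the overlapping and 10.1% of the control-only intervals still lay between 500 bp and 50 kb of a site. The same share was 28.5% among dox-only intervals below the threshold on q and 22.3% among all dox intervals, so it was not particular to the stronger new intervals. Per kb of gap, control-only intervals numbered 2 at 1 to 2 kb, 7.8 at 10 to 20 kb and 5.2 at 40 to 50 kb, with no decline from near to far, and dox intervals overlapping control numbered 86 at 1 to 2 kb and 59.1 at 40 to 50 kb.

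The rule admits no interval with a site inside, so an abutting member lies to one side of its site by definition, and the uncovered centre follows largely from that choice. The 366 abutting members were nearest to 311 sites, and at 247 of these (79.4%) the centre of the site lay in no other dox interval either. What the rule left free was the far side of the site. At 225 of the 247 (91.1%) a dox interval lay near on both sides. The uncovered stretch between the pair of flanks had a median width of 194 bp (quartiles 137 and 269), and 181 of the 225 (80.4%) were at most 300 bp wide. The site lay within 50 bp of the middle of that stretch in 161 cases (71.6%). This share is in part fixed by the rule. A member cannot reach into the site window, so a narrow stretch leaves the site little room away from its middle. Of the 225 stretches, 120 were at most 200 bp wide, and nothing is drawn from the central position. Control intervals shared a base pair with the site window at 3 of the 311 sites.

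The partner across the site was of several kinds. At 82 of the 247 sites it was a dox-only interval that itself touched a site window, so it was no member by the rule, at 79 a dox-only interval below the threshold on q, and at 55 a second member. At 21 sites no interval lay near on the other side, and at 9 the partner overlapped a control interval. In the 55 pairs of members, the gap ranged from 119 to 475 bp, with a median of 209 bp. The higher fold enrichment of a pair was a median 1.28 times the lower, under 1.5 times in 37 pairs and at most 2.22 times. Both flanks had to pass the same threshold on q, which narrows this ratio: the quartiles over all abutting members were 5.83 and 9.30.

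**Figure D2:**
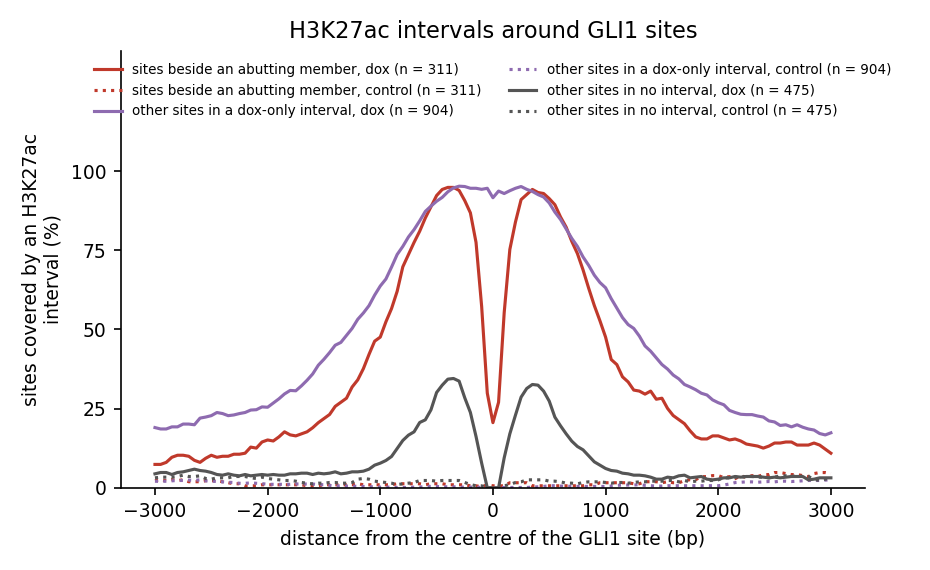
Share of GLI1 sites covered by an H3K27ac interval at each distance from the site centre, in the dox list (solid) and the control list (dotted). Sites beside an abutting member (red) are covered at 20.6% at the centre and at 94.9% and 94.2% at 350 bp to either side. The low centre of the red and grey sets and the high centre of the sites in a dox-only interval (purple) follow from how the sets were chosen.

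At 350 bp to the left and right of the 311 sites, 94.9% and 94.2% were covered by a dox interval, against 20.6% at the centre. Coverage of at least 1 side and the low centre follow from the choice of the sites, and coverage of the second side does not. The 904 other sites in a dox-only interval were chosen for an interval at the site, so their coverage of 91.6% at the centre is no comparison for the 311. A faint double shoulder was also present at the 475 other sites in no interval, 34.5% to the left, 0% at the centre by definition and 32.6% to the right. The lists hold intervals and summits and no read coverage, so a dip in the called intervals was measured here and not a dip in signal. Sites that lay in no H3K27ac interval numbered 637 in all, and 162 of them (25.4%) were nearest to an abutting member. Those 162 had a median GLI1 −log10 q of 32.5 (95% interval 28.7 to 37.9), against 23.7 (22.2 to 24.6) for the other 475 and 30.8 for all 2605 sites.

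The pair of members with the strongest flank lay in Ntm, which encodes the cell adhesion protein neurotrimin. Its site, at chromosome 9, 29557197 to 29557297 (mm10), had a GLI1 −log10 q of 503 and lay in no interval. The left flank had a dox fold enrichment of 17.8 and the right flank, at 29557356 to 29560317, one of 33.4 (exact Poisson 95% interval 28.5 to 39.0), with 195 bp between them. The right flank had the highest fold enrichment of the 1537 members, and the nearest control interval was 121985 bp away. At a site between genes on chromosome 5, the flanks had fold enrichments of 14.4 and 22.0 across 215 bp. The nearest gene, Stim2, which encodes a calcium sensor of the endoplasmic reticulum, lay 320377 bp from the stronger flank. In Kcnma1, a calcium-activated potassium channel gene, the flanks were at 9.05 and 17.5 across 209 bp. In Kcnd3, a voltage-gated potassium channel gene, they were at 14.8 and 10.6 across 328 bp. These pairs are among those with the strongest flanks of the 55 and stand for themselves only.

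Abutting members at the strongest sites had the higher fold enrichments, and distal members showed no such gradient. Split into 4 groups of equal size by rising GLI1 −log10 q of the nearest site, abutting members had median fold enrichments of 6.27, 6.34, 7.15 and 9.70, the last with a 95% interval of 8.23 to 11.1 (n = 92). The same 4 groups of distal members had medians of 6.48, 6.32, 6.27 and 6.46 (6.27 to 6.77, n = 293). Spearman's rho between the 2 measures was 0.39 over 366 abutting members and −0.0025 over 1171 distal ones. These are descriptions across regions of the same pools, several of which share a site. The gap to the site had a rho with fold enrichment of −0.20 within the abutting class and 0.04 within the distal class.

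**Figure D3:**
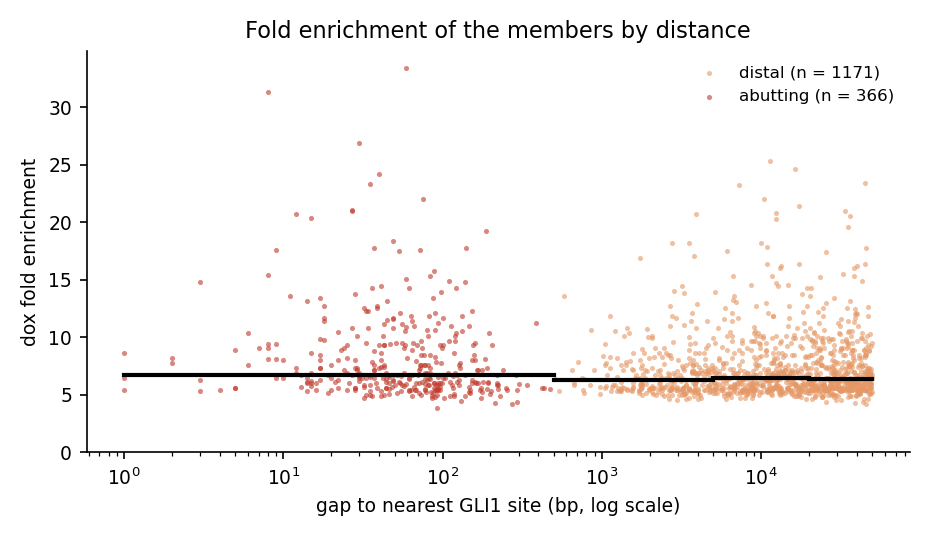
Dox fold enrichment of each member (points) against its gap to the nearest GLI1 site on a log scale, with the median per distance group as a black bar. The medians lie between 6.27 and 6.70 in all 4 groups, and high values occur both within 100 bp of a site and beyond 20 kb.

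Over all members the median fold enrichment was 6.48 (95% interval 6.36 to 6.63) and the range 3.90 to 33.4, values that the threshold on q bounds from below. In the groups at up to 500 bp, 500 bp to 5 kb, 5 to 20 kb and 20 to 50 kb the medians were 6.70, 6.27, 6.48 and 6.34. The 3146 dox-only intervals beyond 50 kb of a site had the same median, 6.48, and a similar median width, 1059 bp against 1037 bp. The 845 new intervals that held a site stood apart from both, with a median fold enrichment of 10.8 and a width of 2115 bp. Width is part of that difference by construction, since a wider interval is more likely to hold a site. The number of sites within 50 kb made little difference to the level: the median was 6.48 for the 1065 members with 1 site, 6.61 for 315 with 2, 6.48 for 125 with 3 or 4 and 6.74 for 32 with 5 or more.

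How many reads stood behind a member could be recovered. For each of the 1537 members a whole number of reads at the summit was found that gives back, to within 0.01, both values of the peak caller (fold enrichment and −log10 p). These pileups ran from 21 to 167 with a median of 31. The uniform background was 2.83 reads in control and 3.63 in dox, a ratio of 1.28 that is taken here as the ratio of depths. Library totals are unknown, so a deeper dox pool is not established. After scaling to the control depth, the members had a lowest −log10 p of 8.03 and a median of 14.1. The lowest −log10 p in the control list was 2.93. The threshold on q, by which the members were chosen, keeps them above that value in advance, so nothing is drawn from the comparison. What part depth has in the absence of members from the control list was not tested. An absence from the control list means that no summit passed there, and the weakest control summits, those with a −log10 q under 1.5, reached a fold enrichment of 2.61. Within 1000 bp of a control interval lay 145 members (9.43%), and within 5 kb 472 (30.7%). These shares were 9.19% and 27.1% for the new intervals far from sites. The median gap to the nearest control interval was 21081 bp for abutting and 8973 bp for distal members.

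Most members lay away from gene ends. Within 1000 bp of an annotated end of a protein-coding gene lay 71 members (4.62%, 3.68 to 5.79), 48.9% lay inside a gene and 46.5% between genes. The start and the far end of a gene both count as ends, so this is no share of promoters. Among dox intervals near a site that overlapped control, 27.7% lay at a gene end, and among new intervals far from sites 6.33%. The strongest member at a gene end was at Tmprss13, a membrane serine protease gene, at chromosome 9, 45347782 to 45350006, with a fold enrichment of 26.9 (23.0 to 31.3) and a site 30 bp away. The next were at Gprc6a, an amino acid-sensing receptor gene (16.4), Otulin, which encodes a deubiquitinase specific for linear ubiquitin chains (13.9), Aldh3b3, an aldehyde dehydrogenase gene (13.6), and Pigh, a gene of glycosylphosphatidylinositol anchor synthesis (13.1). The member at Otulin was 485 bp from a control interval, and the other 4 were more than 11 kb from one. The Aldh3b3 member covers the promoter sequence given above and lies 11 bp from a site.

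Of the 12 strongest members, 6 abutted a site and 6 were distal. The abutting ones include those described above in Ntm, at Tmprss13 and between genes with the distant Stim2 as the nearest. In Slc8a3, a sodium and calcium exchanger gene, the member at chromosome 12, 81286424 to 81287978, reached 31.3 (26.5 to 36.8) at 8 bp from a site. A member in Cdh23, a cadherin gene of sensory hair cells, reached 23.3 at 35 bp from a site, and one 4087 bp from Procr, the protein C receptor gene, reached 21.1 at 27 bp. Distal members inside a gene were those of Ercc6l2 (fold enrichment 25.3, 11415 bp from a site), the sorting nexin gene Snx29 (23.4, 45133 bp), the kinesin family gene Kif26b (23.2, 7220 bp) and Tgfbrap1, whose product binds TGF-beta receptors (22.0, 10454 bp). The other 2 lay between genes, nearest to the synaptotagmin gene Syt12 (21.4, 17306 bp) and the mitochondrial ribosomal protein gene Mrps18a (21.0, 33698 bp). The Snx29 member, at chromosome 16, 11643155 to 11648709, was also the widest of the 1537, at 5555 bp, and had 10 summits. Its nearest control interval was 99401 bp away.

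The thresholds cut through a continuum. The member just inside the threshold on q, nearest to Cdkal1, had a −log10 q of 10.0 and a fold enrichment of 5.11, and the interval just outside, nearest to Cdk8, had 9.94 and 4.66. By distance, the farthest member lay 49830 bp from a site, in Syt12, with a fold enrichment of 5.28. The first intervals left out lay at 50098 bp near Robo2 (6.91), 50177 bp near Plpp3 (7.70) and 50194 bp near Sox11, where the fold enrichment was 19.2. The nearest member, in Tmtc2, began 1 bp from the site window and had 8.64.

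Most distal members within 5 kb of a site belonged to a larger acetylated stretch that held a site, and few of the farther ones did. Of 282 members at 500 bp to 5 kb, 187 (66.3%) were joined to a dox interval holding a site through gaps of at most 1000 bp. Of 889 members beyond 5 kb, 19 (2.14%) were joined in this way. A member and its nearest site had the same nearest protein-coding gene in 99.2%, 96.8%, 92.5% and 77.3% of cases over the 4 distance groups. The acetylation of the nearest site itself also differed with distance. Within 500 bp the site lay in a dox interval overlapping control in 2.46% of cases, and in the 3 farther groups in 33.3%, 33.3% and 42.8%. The share in a dox-only interval was 38.3%, 56.7%, 50.7% and 39.5% over the 4 groups, and that in no interval 59.3%, 9.93%, 16.0% and 17.1%. The shares within 500 bp are in part fixed by the rule. A member beside such a site can neither hold it nor overlap a control interval.

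From the side of the sites, 1282 of 2605 (49.2%) had a member within 50 kb. The share was 55.4% (52.3 to 58.4) for sites in a dox-only interval, 47.7% (44.5 to 51.0) for sites in a dox interval overlapping control and 41.8% (38.0 to 45.6) for sites in no interval. In 4 groups of equal size by GLI1 −log10 q it was 42.5%, 43.8%, 49.0% and 61.6% from the weakest to the strongest sites. The share of sites with a control-only interval of the same q floor ran the other way, at 13.8%, 13.2%, 9.22% and 6.45%. Neighbouring sites share members, so these shares are not over independent points.

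Regions acetylated in both lists around the members were compared next. For 35389 shared regions the log2 ratio of dox over control fold enrichment was centred on its median, which was −0.13 before centring, and a region is called higher or lower here when the centred ratio is at least 1 in size. By that measure 6.78% of all shared regions were higher and 8.31% lower. Within 50 kb of a member were 3350 shared regions with a median of 0.20 (0.16 to 0.22), of which 584 (17.4%) were higher and 201 (6.00%) lower. The 2970 without a GLI1 site inside had a median of 0.11, with 11.6% higher. With distance the median fell, from 0.58 at up to 2 kb from a member (n = 219, 27.9% higher) to 0.25 at 2 to 5 kb, 0.11 at 5 to 10 kb, 0.08 at 10 to 25 kb and 0.04 at 25 to 50 kb.

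A decline of this kind was not particular to members. Around new intervals more than 50 kb from any site, shared regions more than 50 kb from sites and members had a median of 0.39 (0.34 to 0.45, n = 488) at up to 2 kb, 0.14 at 2 to 5 kb, 0.07 at 5 to 10 kb and −0.01 at 25 to 50 kb. Next to distal members the value at up to 2 kb was 0.62 (0.48 to 0.73, n = 193). The 2 sets are not alike, since regions next to distal members may lie within 50 kb of a site. The difference between them was not tested. Next to abutting members there were 26 such regions, with a median of 0.26, an interval of −0.14 to 0.64, 3.85% higher and 15.4% lower. Within 50 kb of an abutting and of no distal member, 358 regions without a site had a median of 0.02, with 7.82% higher and 11.5% lower, against 0.12, 12.2% and 6.01% for the 2612 within 50 kb of a distal member. Shared regions within 50 kb of a site but of no member had a median of −0.02 (n = 3495, 6.15% higher and 8.01% lower). Without centring, each of these values is lower by 0.13, which turns the medians beyond 5 kb from a member negative.

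**Figure D4:**
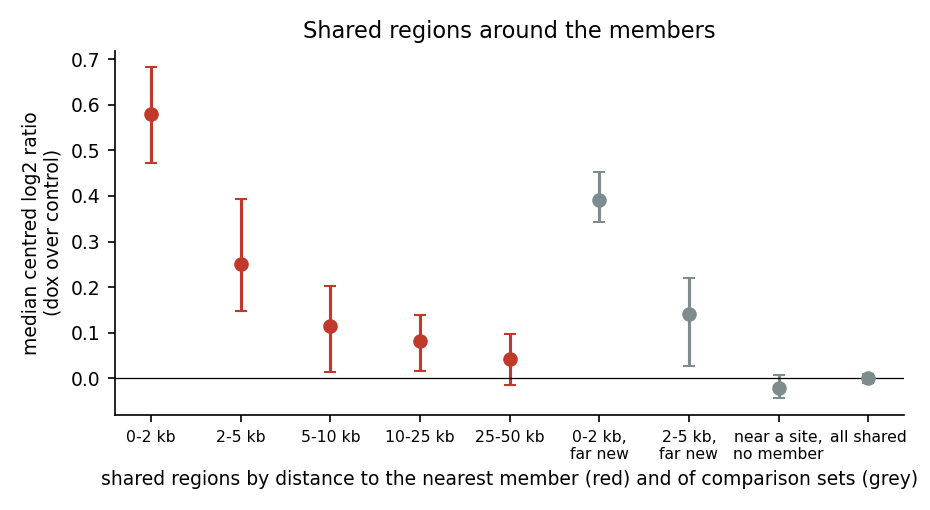
Median centred log2 ratio of dox over control fold enrichment in shared regions without a GLI1 site inside, by distance to the nearest member (red), and in comparison sets (grey: around new intervals far from sites, near a site with no member, and all shared regions). Bars are 95% intervals of the median over regions; the medians fall from 0.58 at up to 2 kb from a member to 0.04 at 25 to 50 kb.

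Members were then chained into loci, whose excess of dox over control intervals is in part set by the choice of members, when the gap between neighbours was at most 50 kb. There were 943 loci, 586 of which held 1 member (38.1% of all members) and 357 of which held at least 2 (951 members). Only 23 loci held 5 or more, and these contained 154 members (10.0%). The locus with the most, 13 members, spanned 181.6 kb of chromosome 8, from 120847078 to 121028704, and held no protein-coding gene. Its nearest gene was Foxf1, a forkhead factor gene of the lung and gut mesenchyme and a hedgehog target, 55682 bp away, and Foxc2, another forkhead factor gene, and Irf8 lay 87467 and 90384 bp away. Within it were 10 GLI1 sites, 73 dox intervals and 14 control intervals. The 13 members were of middling level, from 4.64 to 10.1, and none was abutting. The 9 shared regions in the span had a median centred log2 ratio of 1.35. Shared regions with a GLI1 site inside are kept in this median and in those of the loci below.

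In the gene Zdhhc14, which encodes a palmitoyltransferase, 10 members lay within 188.2 kb, together with 5 sites, 39 dox intervals and 2 control intervals. The strongest, at chromosome 17, 5567461 to 5571019, had a fold enrichment of 14.6 (11.5 to 18.3) and lay 14869 bp from its site. In and beside Ercc6l2, a DNA repair helicase gene, 9 members and 11 sites lay within 152.7 kb of chromosome 13, 305704 bp from Ptch1, the hedgehog receptor gene. That span had 63 dox and 27 control intervals, and its 8 shared regions had a median ratio of 2.03, the highest of the 8 largest loci. Several of these 8 regions hold a GLI1 site, so the ratio is not one of the surroundings of members alone. A member between this locus and Ptch1, at 63687161 to 63688201, had 8 sites within 50 kb, the most of any member, shared with 2 members of the locus, and its fold enrichment was 7.48.

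Dock9, a guanine nucleotide exchange factor gene, held 9 members with 2 sites in the span (19 dox and 4 control intervals), and Frmd4b, a scaffold protein gene, held 9 with 3 sites (31 and 6). A gene-free stretch of chromosome 11 between Slc39a11 and Sox9, a factor of cartilage and heart valve progenitors, held 8 members, 203628 bp from Sox9. Of these, 2 abutted a site, and the stronger, at 113060069 to 113061503, had a fold enrichment of 15.4 (12.1 to 19.3). In the receptor gene Igf1r, 8 members lay beside 15 control intervals, and the shared regions there had a median ratio of 0.21. It was 1.00 to 2.03 in 6 of the other 7 largest loci and 0.61, from a single region, in Zdhhc14. Some of these medians rest on few regions, 3 each in Dock9 and Frmd4b and 4 in the stretch beside Slc39a11. Among the loci with 6 members the medians ran from −0.24 to 1.32, so a low ratio was not particular to Igf1r. Control-only intervals at any q numbered 1 each in the spans at Zdhhc14, Slc39a11, Igf1r and Lekr1, another of the 8 largest loci. None in the 8 spans reached the same q floor. Only 2898 control-only intervals of the whole list did, so their absence from 8 spans says little.

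**Figure D5:**
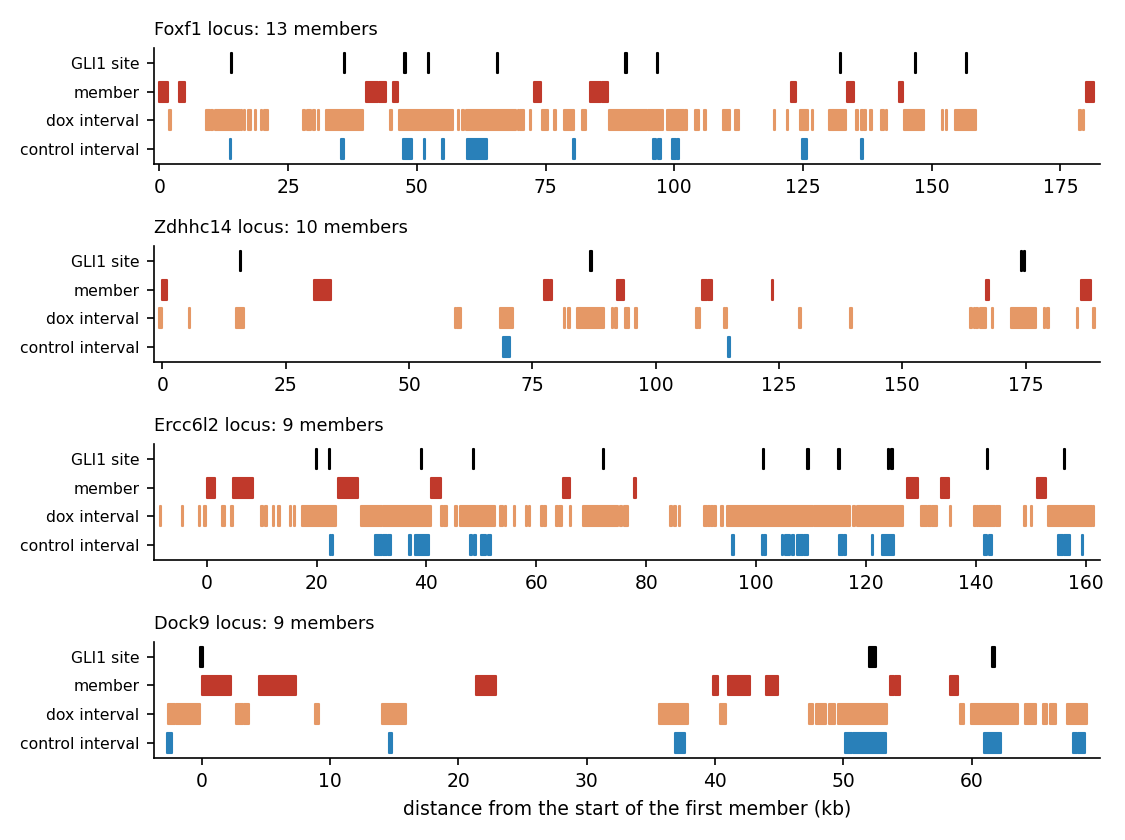
Maps of the 4 loci with the most members, with GLI1 sites (black), members (red), other dox intervals (orange) and control intervals (blue) by distance in kb from the first member. Sites and short intervals are drawn at a minimum width so that they can be seen. The spans hold 73, 39, 63 and 19 dox and 14, 2, 27 and 4 control intervals, an excess that follows in part from choosing loci by members.

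Genes of named pathways were examined for a member within 50 kb of the gene. Among 20463 protein-coding genes, 1277 (6.24%) had one, and of 273 listed genes 33 did. The lists were drawn up with earlier results of these data known, so their counts are descriptions. Of 39 hedgehog pathway and target genes, 8 (20.5%, 10.8 to 35.5) had a member nearby. Of genes with a GLI1 site within 50 kb, 8 of 19 on this list had a member, a share like the 42.2% of all genes with a site (1153 of 2735).

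Among the pathway's own components, Gli1 had 2 members, the stronger within the gene at 5.66 and 2705 bp from a site. No member lay within 50 kb of Ptch1, Hhip, Smo, Sufu, Gli2, Gli3 or the ligand genes Shh, Ihh and Dhh. Among transcription factor genes of the list, Prdm1, a repressor gene of early lineage decisions, had the strongest, 16.0 (12.6 to 19.97) at chromosome 10, 44456786 to 44460865. It covers the Prdm1 promoter shown above and lay 13215 bp from its site. Snai1, a factor of epithelial to mesenchymal transition, had 3 members of up to 6.45, Nkx2-9, a homeobox target of the floor plate, 2 of up to 6.48, and Foxa2, a factor of floor plate and endoderm, 2 of up to 5.40. Foxf2 had 1 member at 5.47, 98 bp from the gene and 93 bp from a site, and the cell cycle kinase gene Cdk6 1 at 7.35. Foxf1 had none within 50 kb, since the locus described above begins just beyond.

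Signalling genes of the BMP, Wnt and FGF pathways had a member nearby at 8 of 38 (21.1%, 11.1 to 36.3), against 6.24% of all genes. Of the 11 with a GLI1 site within 50 kb, 7 had a member, against 42.2% of all genes with a site. Among ligand genes, Wnt4 had the strongest member of the list, 10.4 (7.84 to 13.6), 44792 bp from the gene, Bmp5 had 3 of up to 8.86 and Bmp7 had 3 of up to 7.13, while Wnt11 had 1 at 6.30. The BMP antagonist gene Nog had 1 at 8.83, 37 bp from a site. Further along these pathways, the receptor gene Fgfr2 had 1 at 6.30, the inhibitory Smad gene Smad6 1 at 5.40 and the Wnt effector gene Tcf7 1 at 5.28.

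Heart genes were near the share of all genes. Of 29 cardiac transcription factor genes, 2 (6.90%) had a member nearby, against 6.24% of all genes: Gata5, with 4 of up to 7.35, and Gata6, with 1 at 7.13. Of 34 genes of the sarcomere and calcium handling, 3 (8.82%) did: Casq2, the calcium store protein calsequestrin, with 4 of up to 9.94, Myl3, a myosin light chain gene, with 1 at 8.66 that was 118 bp from a site, and Des, the desmin gene, with 1 at 5.19. Of genes with a site within 50 kb, 2 of 8 on the first list and 3 of 9 on the second had a member. The share was 42.2% for all genes with a site.

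Genes of other lineages were also examined, beside the 6.24% of all genes with a member nearby. Of 33 early mesoderm and second heart field genes, 4 had a member: Foxp1, with 3 of up to 14.3 (11.4 to 17.8), Fgf3, Wnt11 and Pdgfra. Of 20 endoderm genes, 4 did: Ttr, the transthyretin gene, with 3 of up to 9.51, Afp, the alpha-fetoprotein gene, with 2 of up to 7.08, Foxa2 and Gata6. Of 22 blood and endothelial genes, 3 did: Fli1 (3 of up to 8.48), Nfatc1 (3 of up to 6.05) and Sox18 (1 at 6.30). The smooth muscle and mesenchyme list had 2 of 20 (Prrx2 and Twist2), the pluripotency list 2 of 20 (Fgf4 and Sall4), the neural list 1 of 17 (Foxa2) and the housekeeping list 0 of 18. Among genes with a site within 50 kb, 42.2% of all genes had a member. On these lists it was 4 of 7 mesoderm, 4 of 6 endoderm and 3 of 4 blood and endothelial genes. It was 2 of 6 smooth muscle, 2 of 2 pluripotency, 1 of 2 neural and 0 of 2 housekeeping genes. Foxa2, Gata6 and Wnt11 stand on more than 1 list. The endoderm markers Sox17 and Afp had no H3K27ac interval at a gene end in either list.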

How the data were processed

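H3K27ac was mapped by ChIP-seq in control and dox cells, and tagged GLI1 by pulldown. The submitters' processing notes name the build mm10 and the tools MACS2 2.1.1, Bowtie2 2.3.2 and SAMtools 1.5, without their roles. Per the deposited file names, the authors combined replicates before calling peaks and removed blacklisted regions and chrM. In the deposited H3K27ac lists each summit has a fold enrichment, a ratio of pileup to local background, and a significance score as −log10 p and −log10 q. The deposited GLI1 list holds 101 bp windows with a −log10 q, named by the authors as replicated and holding a Gli motif; how both were judged is not given in the sources used here. The control GLI1 pulldown and the inputs were not analysed here.

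Summits of one interval were collapsed to the highest value with Python 3.11.15, pandas 2.3.3, numpy 2.4.6 and scipy 1.17.1. Gaps are between nearest edges, and adjacent intervals have a gap of 1 bp. Shares have Wilson 95% intervals and medians have order-statistic intervals, both over regions taken as independent. Regions cluster and share sites, so these may be too narrow. Fold enrichments of single members have exact Poisson intervals of the recovered pileup, which cover counting error only. None of these intervals covers the spread between samples. Library totals are unknown. Genes are protein-coding RefSeq genes of GRCm38.p6, which has the coordinates of mm10; 1420 of 21883 with an end in a stretch where peak numbers skip were left out, and the 14 members in such stretches of the control list are counted but not named. Scripts were tested on simulated intervals.

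The members and gene lists were chosen with earlier results of these data known. Named members are the 12 strongest, the strongest per gene list and for each of the loci with the most members, those with the most sites, those nearest to and farthest from a site, and the 5 strongest at a gene end; the flank pairs, the other list genes and the intervals at the thresholds were named after their values were seen. One gene of the lists is counted but not reported here.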

Additional observations from a re-analysis of the deposited data

How the results depend on the processing

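No paired analysis was possible because the deposited lists pool both replicates of a group, and for the same reason no replicate could be left out. Of 37 alternatives, 15 stayed within the limit set (1.5 times for a count, the main value's 95% interval for a share or median), 22 moved beyond it, and none reversed. With −log10 q of at least 5 there were 4252 members, with a median fold enrichment of 4.54 and width of 586 bp, and 30.9% of dox-only intervals lay within 50 kb of a site (control-only 12.1%, overlapping control 17.7%). With at least 20 there were 519 members, at 9.51 and 1603 bp. With a site required within 10 kb there were 837 members, and the share near a site was 17.9% (1.52% and 4.44% for the other sets); at 25 kb it was 24.98% (4.97% and 9.77%), at 100 kb 43.2% (20.2% and 28.7%). The mean over summits gave a median fold enrichment of 5.66. With only the sites above the median GLI1 −log10 q, the median gap was 9185 bp over 1097 members. The median ratio of shared regions was 0.063 uncentred, 0.43 within 10 kb of a member, 0.27 within 25 kb and 0.11 without a site inside. A gene end window of 2000 bp gave 7.35% of members at a gene end. Of the 273 listed genes, 19 (6.96%, all genes 3.11%) had a member within 10 kb and 51 (18.7%, all genes 9.96%) within 100 kb. Chosen after the data had been seen, leaving out intervals within 500 bp of a site gave a share of 27.1% and a median gap of 13541 bp, and 344 or 382 members were abutting with a boundary of 200 or 1000 bp. The lists give no spread between replicates and no read coverage between summits, so an interval missing from the control list has no measured level there.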
